A study of Hydrangea macrophylla with 27 samples.

Results

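PPCK1 is the gene of phosphoenolpyruvate (PEP) carboxylase kinase in Arabidopsis thaliana, and At3g16150 codes for a probable isoaspartyl peptidase/L-asparaginase in the same species. In whole stems of Hydrangea macrophylla, 3 of 142016 assembled transcript clusters carried these names. They were taken as the clusters whose Swiss-Prot match gave exactly PPCK1 or At3g16150 as the gene name and whose expected counts summed to at least 100 over 27 libraries. No cluster of either name was under that minimum, and all 3 were among the 52918 clusters that passed the filter on low counts and were tested. The names were chosen by earlier results of these data as late-response genes, taken here to mean bent against unbent values at 24 h and 72 h; the exact values behind the choice are not known, so a use of the early hours in it cannot be told. Values at 24 h and 72 h are therefore given as a description with no test, and tests are given for the early hours.

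The stems came from pot plants of the wild-type cultivar 'Wudu', raised from micro-cuttings and kept at 23 °C by day and 21 °C by night with 16 h of light. Bent plants were pushed by a moving plastic curtain 12 times on 1 morning, each time to 30° from the vertical for about 30 seconds. Their stems were taken 1, 3, 24 and 72 h afterwards, and unbent plants raised the same way were sampled at the same times. A further control group was sampled 15 minutes before bending. Each of the 9 groups had 3 libraries that the series describes as biological replicates, so the p-values measure the spread between these stem samples.

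PEP carboxylase joins PEP and bicarbonate to form oxaloacetate, which is commonly reduced to malate, and so refills the tricarboxylic acid cycle when carbon skeletons are drawn off for amino acids. Its plant-type isozymes are inhibited by malate, and phosphorylation of a serine near the amino terminus by PEP carboxylase kinase makes them less sensitive to it. The kinase is a small protein with little more than a kinase domain, and in several plants its activity follows the amount of its transcript, which changes with light and with the hour of the day. L-asparaginase splits asparagine, a major form in which plants carry and store nitrogen, into aspartate and ammonium. In Arabidopsis, the protein of At3g16150 is the potassium-dependent asparaginase.

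The abundant PPCK1 cluster, Cluster-9242.53906, was 1423 bases long and held 42592 expected counts over all libraries. Its Swiss-Prot alignment score was 836, and its match in the NR protein database was described as PEP carboxylase kinase 2-like of Camellia sinensis. The low PPCK1 cluster, Cluster-9242.79058, was 2255 bases long and held 5302 counts, with a score of 735 and an NR match to kinase 1-like of the same plant. Both PPCK1 clusters thus shared a Swiss-Prot name but had different NR matches, and each carried a protein kinase domain. The At3g16150 cluster, Cluster-9242.41128, was 3936 bases long, held 51652 expected counts and carried an asparaginase domain. Its score was 554, and its NR match was an isoaspartyl peptidase/L-asparaginase of Actinidia chinensis. Counts were not whole numbers in 14 of the 27 libraries for the At3g16150 cluster, in 2 for the abundant PPCK1 cluster and in 0 for the low PPCK1 cluster, so some reads of the asparaginase were divided between clusters.

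Libraries held 14.4 M to 23.1 M expected counts, with a median of 17.2 M. Markers of all the stem tissues looked for were present. Summed FPKM (counts scaled for cluster length and library size) over the 27 libraries ran from 334 to 701 for 20 xylem clusters, from 107 to 152 for 5 phloem clusters and from 35.6 to 70.3 for 9 epidermis clusters. It ran from 128 to 169 for 8 clusters of dividing cells, of which CYCB1-2 alone averaged 88.3, and from 6223 to 13580 for 32 clusters of green tissue. Ribosomal RNA clusters held 2.68% to 8.44% of counts, over 5% in 3 libraries, Hydrangea ringspot virus held 2.32% to 6.88%, and thrips held up to 0.0769%, over 0.05% in 2 libraries.

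On the length-scaled FPKM of the authors, the abundant PPCK1 cluster stood at 58.8 ± 1.63 before bending (SD, n = 3). The At3g16150 cluster stood at 26.1 ± 3.40 FPKM in the same libraries. The low PPCK1 cluster was at 7.85 ± 0.656 FPKM. Levels within a cluster are given from here on as CPM, counts scaled to library size with TMM factors and not to length. Over the 9 groups, the mean level of the abundant PPCK1 cluster spanned 4.60-fold and that of the low PPCK1 cluster 4.50-fold, while the At3g16150 cluster spanned 1.67-fold.

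**Figure D1:**
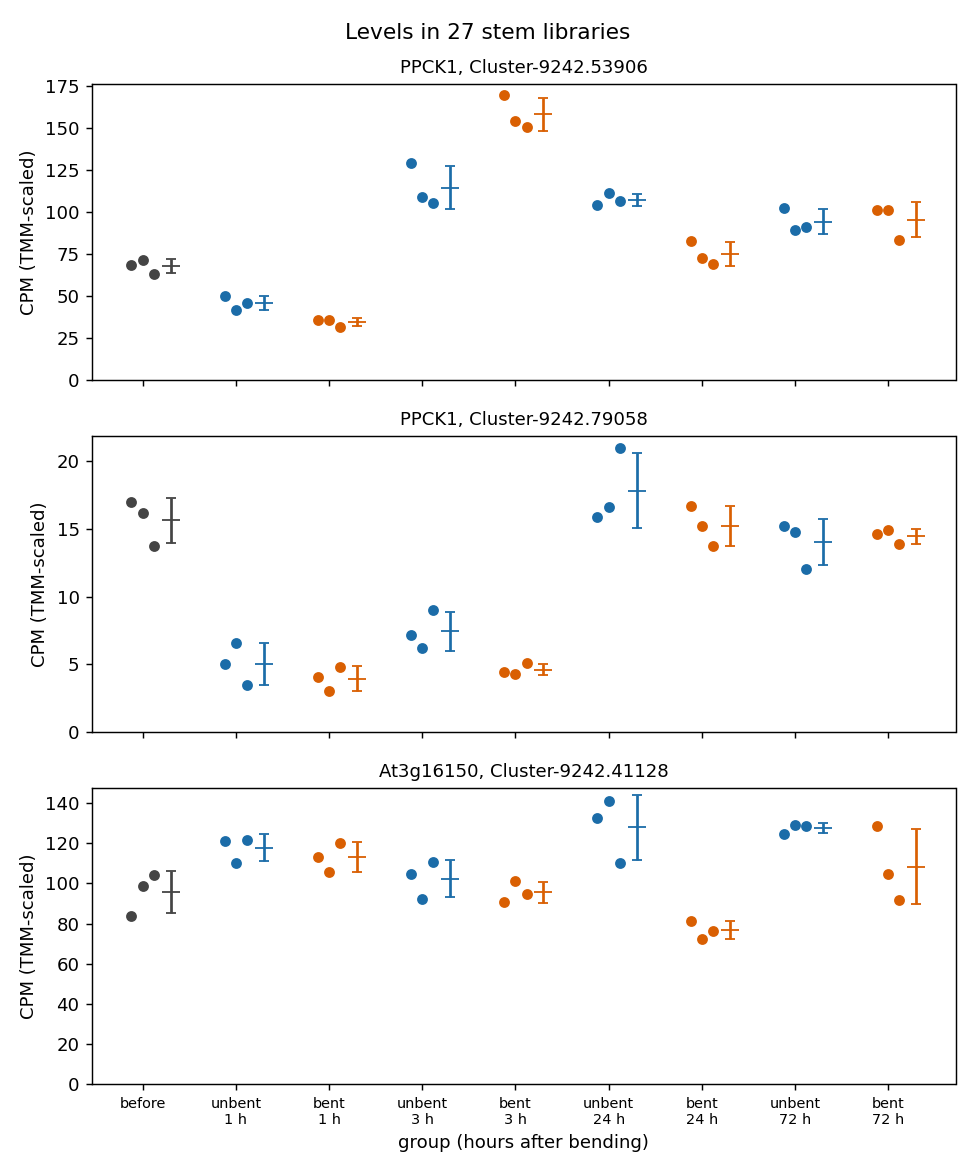
Level of each cluster (CPM, linear axis from 0) in every library, by group, with the mean and SD of 3 libraries as a bar to the right of the points; grey is before bending, blue unbent and orange bent. The abundant PPCK1 cluster was lowest in bent stems at 1 h (34.4 ± 2.35) and highest in bent stems at 3 h (158 ± 10.1), and the At3g16150 cluster was lowest in bent stems at 24 h (76.8 ± 4.53).

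The kinase transcript swung widely within the first hours even in stems that were never bent. The abundant PPCK1 cluster was at 68.8, 71.6 and 63.4 CPM in the 3 libraries before bending, and at 50.3, 41.5 and 45.8 CPM in unbent stems at 1 h. In unbent stems at 3 h it was at 129, 109 and 106 CPM. All unbent libraries at 1 h were below all libraries taken before, and all unbent libraries at 3 h were above them. The abundant cluster thus fell by 0.57 ± 0.09 (log2 fold change ± SE) from before to 1 h, with an adjusted p of 2.53e-06 in edgeR's quasi-likelihood test. From 1 h to 3 h it rose by 1.32 ± 0.09, or 2.50-fold (adjusted p = 3.82e-16), and at 3 h it was 0.76 ± 0.08 above the level before (adjusted p = 3.47e-09). Changes of this kind were frequent, since 10.3% of all clusters tested passed the threshold from before to 1 h, 14.1% from before to 3 h and 12.8% from 1 h to 3 h. The share of all clusters with no overlap between groups was not counted, here or in the comparisons below. With 3 libraries a group, a lack of overlap can occur where the test is not passed. In unbent stems, the hour of the day and the time spent since the first harvest cannot be told apart, nor can fewer cells of a type and less RNA per cell in any comparison of these bulk samples.

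In the same unbent stems, the low PPCK1 cluster took another course. It was at 16.9, 16.2 and 13.7 CPM before, at 5.05, 6.60 and 3.44 CPM at 1 h, and at 7.15, 6.19 and 9.00 CPM at 3 h. Both early unbent groups were below all libraries taken before, and they overlapped each other. It fell by 1.64 ± 0.17 on the log2 scale to 1 h (adjusted p = 3.47e-10), 3.11-fold, and at 3 h it was still lower than before, by a log2 fold change of -1.06 ± 0.17 (adjusted p = 3.53e-06). The rise from 1 h to 3 h was 0.58 ± 0.18 (adjusted p = 0.0225). This rise no longer passed without unbent 1 h replicate 1 (0.58), without unbent 1 h replicate 3 (0.35) or without unbent 3 h replicate 3 (0.41).

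The asparaginase transcript moved little over these hours. The At3g16150 cluster was at 83.8, 98.9 and 104 CPM before, at 121, 110 and 122 CPM in unbent stems at 1 h, and at 105, 92.3 and 111 CPM at 3 h. Unbent stems at 1 h were above those taken before with no overlap, by 0.30 ± 0.10, and the adjusted p of 0.0548 missed the threshold. That comparison passed without the replicate 3 taken before (0.38, adjusted p = 0.0284) and without unbent 1 h replicate 2 (0.36, adjusted p = 0.0445). The replicate 3 taken before was also 1 of the 2 libraries with more than 0.05% thrips counts, and the part of those reads in the level was not tested. At 3 h the difference from before was 0.10 ± 0.10 (adjusted p = 0.609), with a 95% interval from -0.11 to 0.30.

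Green tissue markers moved with the hours too. Their summed FPKM was 9829 ± 799 before, 9160 ± 833 in unbent stems at 1 h and 7828 ± 408 at 3 h, and their part in the changes of the clusters was not tested. Of 26 green tissue clusters tested, 12 fell and 2 rose from before to 3 h, 53.8% beside 14.1% of all clusters.

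The abundant PPCK1 transcript was lower in bent than in unbent stems at 1 h and higher at 3 h. At 1 h, bent stems were at 35.5, 35.9 and 31.7 CPM against the unbent values of 50.3, 41.5 and 45.8 CPM. At 3 h, bent stems were at 170, 154 and 151 CPM against 129, 109 and 106 CPM. The groups did not overlap at either hour, and their order was opposite. At 1 h the bent mean was 74.9% of the unbent mean, with a log2 fold change of -0.42 ± 0.09 and an adjusted p of 0.00372 in edgeR. At 3 h it was 138% of the unbent mean, with a log2 fold change of 0.47 ± 0.08 and an adjusted p of 0.000178. The bending effect at 3 h was 0.88 ± 0.12 above that at 1 h, and this difference itself passed the test (adjusted p = 2.11e-05). Over all clusters, 1.93% passed at 1 h, 5.08% at 3 h and 0.841% for the difference between these hours. The call at 1 h rested in part on unbent 1 h replicate 1, the highest of its group, without which the fold change was -0.35 (adjusted p = 0.0618), and limma-voom gave an adjusted p of 0.0687.

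A rise at 3 h was not shared by the low PPCK1 cluster. Bent stems were at 4.41, 4.32 and 5.07 CPM at 3 h against 7.15, 6.19 and 9.00 CPM in unbent stems, with no overlap. The log2 fold change was -0.70 ± 0.18 (adjusted p = 0.0107), and the bent mean was 61.8% of the unbent mean. This call was lost without bent 3 h replicate 1 (-0.68, adjusted p = 0.0622), without bent 3 h replicate 2 (-0.66, adjusted p = 0.0541) and without unbent 3 h replicate 3 (-0.54, adjusted p = 0.170). The tests by limma-voom (adjusted p = 0.0590) and on log2(FPKM + 0.1) (adjusted p = 0.0535) also missed the threshold. At 1 h, bent stems were at 4.09, 3.01 and 4.78 CPM and overlapped the unbent ones, with a log2 fold change of -0.33 ± 0.19 (adjusted p = 0.593). The difference between its bending effects at 3 h and 1 h was -0.37 ± 0.26 (adjusted p = 0.755), with a 95% interval from -0.90 to 0.16 that spans 0. Library counts of this cluster were only 49 to 174 at these hours.

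No bending effect was detected on the asparaginase at the early hours. At 1 h the At3g16150 cluster was at 113, 106 and 120 CPM in bent stems, a log2 fold change of -0.06 ± 0.10 (adjusted p = 0.921, 95% interval -0.26 to 0.14). At 3 h it was at 90.7, 101 and 94.8 CPM in bent stems, a log2 fold change of -0.10 ± 0.10 (adjusted p = 0.717, 95% interval -0.31 to 0.10). Bent and unbent libraries overlapped at both hours.

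Other measures differed between bent and unbent stems at these hours. At 1 h, ribosomal RNA held 3.31% to 6.96% of counts in bent and 2.68% to 3.21% in unbent libraries. At 3 h, summed green tissue FPKM ran from 6223 to 6739 in bent libraries and from 7583 to 8299 in unbent ones, and epidermis FPKM from 36.9 to 47.4 against 49.8 to 50.4. At the same hour, virus reads made up 2.32% to 3.34% of bent libraries and 3.74% to 5.82% of unbent ones. Of the green tissue clusters tested, 6 of 26 fell with bending at 3 h and 0 rose, 23.1% beside 5.08% of all clusters. Their part in the PPCK1 differences was not tested. Without the 3 libraries over 5% ribosomal RNA, the abundant PPCK1 cluster had log2 fold changes of -0.44 at 1 h and 0.48 at 3 h. The bent 1 h libraries left, at 3.85% and 3.31%, still lay above all unbent ones, so this does not remove that difference.

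**Figure D2:**
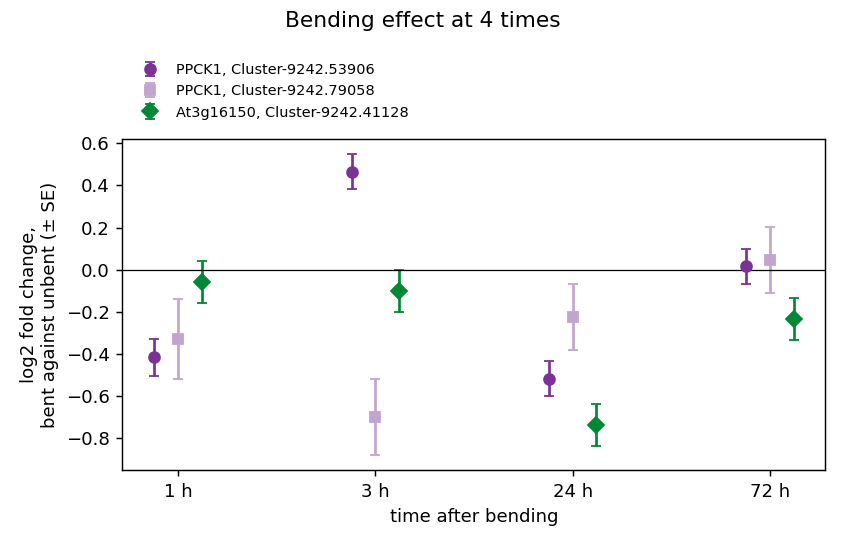
Log2 fold change of bent against unbent stems (points, with SE bars) for the 3 clusters at 1, 3, 24 and 72 h; the line marks 0. The abundant PPCK1 cluster lay at -0.42, 0.47, -0.52 and 0.02, and the At3g16150 cluster at -0.06, -0.10, -0.74 and -0.24. Values at 24 and 72 h are a description, because the names are taken to have been chosen for a late effect.

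At 24 h, both the kinase and the asparaginase were lower in bent stems. PPCK1, in its abundant cluster, was at 83.0, 72.7 and 69.3 CPM in bent stems and at 104, 111 and 107 CPM in unbent stems. The At3g16150 cluster was at 81.5, 72.5 and 76.2 CPM in bent stems and at 133, 141 and 110 CPM in unbent stems. Neither cluster overlapped between the groups, a separation whose share over all clusters was not counted. Bent means were 69.8% and 60.0% of the unbent means, with log2 fold changes of -0.52 ± 0.08 for PPCK1 and -0.74 ± 0.10 for At3g16150. Over all clusters, 0.0246% passed the threshold at 24 h, which was 13 clusters, and these 2 are given without a test because the choice of names is taken to have used this comparison. In the low PPCK1 cluster the values were 16.6, 15.2 and 13.7 CPM in bent stems and 15.9, 16.6 and 21.0 CPM in unbent stems. Its groups overlapped, with a log2 fold change of -0.23 ± 0.16.

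Seen against the stems taken before bending, the 24 h difference had unequal sides in the 2 genes. Unbent stems at 24 h held 1.58-fold the PPCK1 level before bending in the abundant cluster, and bent stems 1.10-fold. For At3g16150, unbent stems at 24 h held 1.34-fold the level before, and bent stems 0.802-fold. The bent libraries at 24 h had the lowest At3g16150 mean of all 9 groups and did not overlap any other group. In bent stems at 24 h, the abundant PPCK1 cluster overlapped the range of the stems taken before. These ratios are of means over 3 libraries and have no test.

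Some measures also separated the 24 h groups. Ribosomal RNA held 2.73% to 2.97% of counts in bent and 3.30% to 3.43% in unbent libraries. Summed phloem FPKM ran from 130 to 134 in bent libraries and from 115 to 129 in unbent ones, and that of dividing cells was 148 to 157 against 132 to 147. None of the 5 phloem and 7 dividing-cell clusters tested passed at 24 h, beside 0.0246% of all clusters. Their part in the difference was not tested. Bent 24 h replicate 2 had the highest thrips share of all libraries, 0.0769%. Without the libraries over 0.05% thrips, the log2 fold changes at 24 h were -0.49 for the abundant PPCK1 cluster and -0.69 for At3g16150.

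At 72 h the kinase no longer differed in level beyond the spread. Its abundant cluster was at 101, 102 and 83.6 CPM in bent stems and at 103, 89.6 and 91.1 CPM in unbent stems, and the fold change was 0.02 ± 0.08 on the log2 scale. Values of the low PPCK1 cluster were 14.6, 14.9 and 13.8 CPM in bent and 15.2, 14.7 and 12.1 CPM in unbent stems, a log2 fold change of 0.04 ± 0.16. The At3g16150 cluster was at 128, 105 and 91.6 CPM in bent stems and at 125, 129 and 129 CPM in unbent stems. Bent replicates 2 and 3 were below all unbent libraries and replicate 1 was within them, and the log2 fold change was -0.24 ± 0.10, or -0.38 without bent 72 h replicate 1. At 72 h, 0% of clusters passed in edgeR, none in limma-voom and 9 in DESeq2. Unadjusted, 2883 of 52918 clusters had a p under 0.05 in edgeR, a cut that a share of about 0.05 passes with no true difference.

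The late label therefore covers only some of these values. Averaged over 24 h and 72 h, the log2 fold change was -0.25 ± 0.06 for the abundant PPCK1 cluster, -0.09 ± 0.11 for the low PPCK1 cluster and -0.49 ± 0.07 for At3g16150. The late difference of PPCK1 was carried by the abundant cluster at 24 h. That cluster also passed the test at 1 h and 3 h, hours that the late label does not cover. Only in the At3g16150 cluster did bent and unbent libraries lack overlap at 24 h alone among the 4 times. The share of all clusters with such a pattern was not counted. Its overlap at 72 h came from bent replicate 1, at a log2 fold change of -0.24 ± 0.10, so a later difference is not excluded. Over all clusters, 0.00567% passed for the mean of both late times.

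Ordered by mean, the abundant PPCK1 cluster was highest in bent stems at 3 h and stood clear of every other group. Unbent stems at 3 h and 24 h followed and overlapped, then bent and unbent stems at 72 h, which overlapped each other, then bent stems at 24 h and stems taken before, which also overlapped. Unbent stems at 1 h and bent stems at 1 h closed the order, each clear of its neighbours. For the low PPCK1 cluster there were only 2 separate levels. All groups taken before, at 24 h and at 72 h lay between 12.1 and 21.0 CPM, and all groups at 1 h and 3 h lay between 3.01 and 9.00 CPM. For At3g16150, unbent stems at 24 h and 72 h were highest and overlapped, bent stems at 24 h were lowest, and the 6 groups between overlapped from each to the next among themselves. The highest groups were not apart from these, since unbent stems at 24 h (110 to 141 CPM) overlapped unbent stems at 1 h (110 to 122 CPM). Unbent stems at 72 h (125 to 129 CPM) overlapped bent stems at 72 h (91.6 to 128 CPM). Bent stems at 24 h overlapped no other group.

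**Figure D3:**
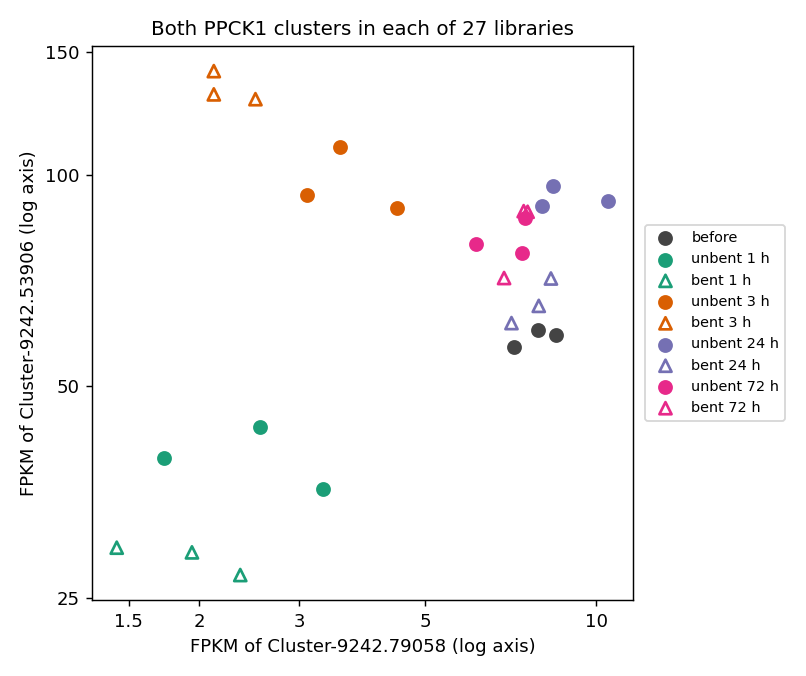
FPKM of the abundant PPCK1 cluster (vertical, log axis) against that of the low PPCK1 cluster (horizontal, log axis) in each of 27 libraries; filled circles are stems before bending or unbent, open triangles bent. Libraries at 1 h and 3 h lie to the left, at 1.43 to 4.45 FPKM of the low cluster, while the abundant cluster spans 26.9 to 141 FPKM among them.

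The balance of the 2 PPCK1 clusters changed accordingly. The FPKM of the abundant cluster was 7.52 ± 0.485 times that of the low cluster before bending, and 16.9 ± 6.00 times in unbent and 15.7 ± 4.64 times in bent stems at 1 h. At 3 h the ratio was 27.2 ± 6.08 in unbent and 59.7 ± 7.78 in bent stems, and the bent libraries ran from 51.1 to 66.4 against 20.2 to 31.1. At 24 h and 72 h the group means of the ratio lay between 8.49 and 11.7. Over the 27 libraries, the log2 CPM of the 2 clusters had a Pearson r of 0.307, and their r with At3g16150 was -0.09 for the abundant and -0.07 for the low cluster. These correlations describe libraries that share groups and hours and carry no test.

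The transcripts most like each gene over the libraries were read next. Among 14079 clusters with a gene symbol and at least 5 CPM on average, those most like the abundant PPCK1 cluster over the 27 libraries of log2 CPM were PIMT1 (r = 0.968), ERD15 (r = 0.956), MYB61 (r = 0.948), ATJ11 (r = 0.947) and XBAT31 (r = 0.946). PIMT1 codes for a protein-L-isoaspartate O-methyltransferase, which repairs damaged proteins, ERD15 for a protein first described as induced early in dehydration, and MYB61 for a transcription factor. ATJ11 is a DnaJ chaperone of the chloroplast and XBAT31 a putative ubiquitin ligase. The log2 fold changes of these 5 with bending at 24 h ran from -0.25 for ATJ11 to -0.04 for ERD15. At 1 h and 3 h they were -0.30 and 0.22 for PIMT1, -0.53 and 0.06 for ERD15, and -0.63 and 0.38 for MYB61. They were -0.51 and 0.21 for ATJ11, and -0.20 and -0.03 for XBAT31. These clusters were picked for their likeness to PPCK1 over the same libraries, so a shared course at 1 h and 3 h was built into the choice. At 3 h, ERD15 rose little and XBAT31 did not rise. No test is given for these values.

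The clusters most like At3g16150 were KIN14L, a kinesin (r = 0.658), CHERP (r = 0.655), FAX2, a fatty acid exporter of the chloroplast (r = 0.648), GRXS15, a mitochondrial glutaredoxin (r = 0.636), and RPL34, a ribosomal protein (r = 0.635). Their log2 fold changes at 24 h ran from -0.37 for KIN14L to -0.05 for GRXS15. An r above 0.9 was reached by 41 clusters for the abundant PPCK1 cluster and by 0 for At3g16150, of 14082 compared. At3g16150 also had the narrower range over the groups, 1.67-fold against 4.60-fold, and the part of this in its r was not tested. The low PPCK1 cluster, looked at after its values were seen, had 79 such clusters, led by BASS3 (r = 0.965), At1g21780 (r = 0.959), CCD4, a carotenoid cleavage dioxygenase (r = 0.957), AMP1 (r = 0.954) and SKP2A (r = 0.952).

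PEP carboxylase was represented by 5 tested clusters. Not all of them match the plant-type isozymes that the kinase phosphorylates, since PPC4 is among them. Of these 5, 0 passed for bending at 1 h, 24 h or 72 h and 1 fell at 3 h, beside 1.93%, 0.0246%, 0% and 5.08% of all clusters, shares at which 0 calls among so few says little. The most abundant, PPC3 (Cluster-9242.53929), stayed between 317 ± 3.72 and 341 ± 20.6 CPM in group means, with bending differences from -0.01 to 0.03 on the log2 scale. The cluster that fell was PPC4 (Cluster-9242.58042), which in Arabidopsis is the bacterial-type isozyme and lacks the serine that the kinase phosphorylates. It was at 92.5 ± 5.83 CPM in unbent and 66.8 ± 4.07 CPM in bent stems at 3 h, a log2 fold change of -0.47 ± 0.07 (adjusted p = 4.99e-06). Its bending effect at 3 h minus that at 1 h was -0.41 ± 0.10 (adjusted p = 0.0181), and in unbent stems it fell by 0.62 ± 0.07 from before to 3 h (adjusted p = 1.17e-09). In both of these comparisons at 3 h the abundant PPCK1 cluster rose. A second PPC4 cluster (Cluster-9242.59306) had -0.38 ± 0.19 with bending at 3 h (adjusted p = 0.331). PEP carboxykinase catalyses the opposite conversion, from oxaloacetate to PEP. Of its 3 clusters, 0 passed for bending at any hour, which again says little at the shares given above.

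**Figure D4:**
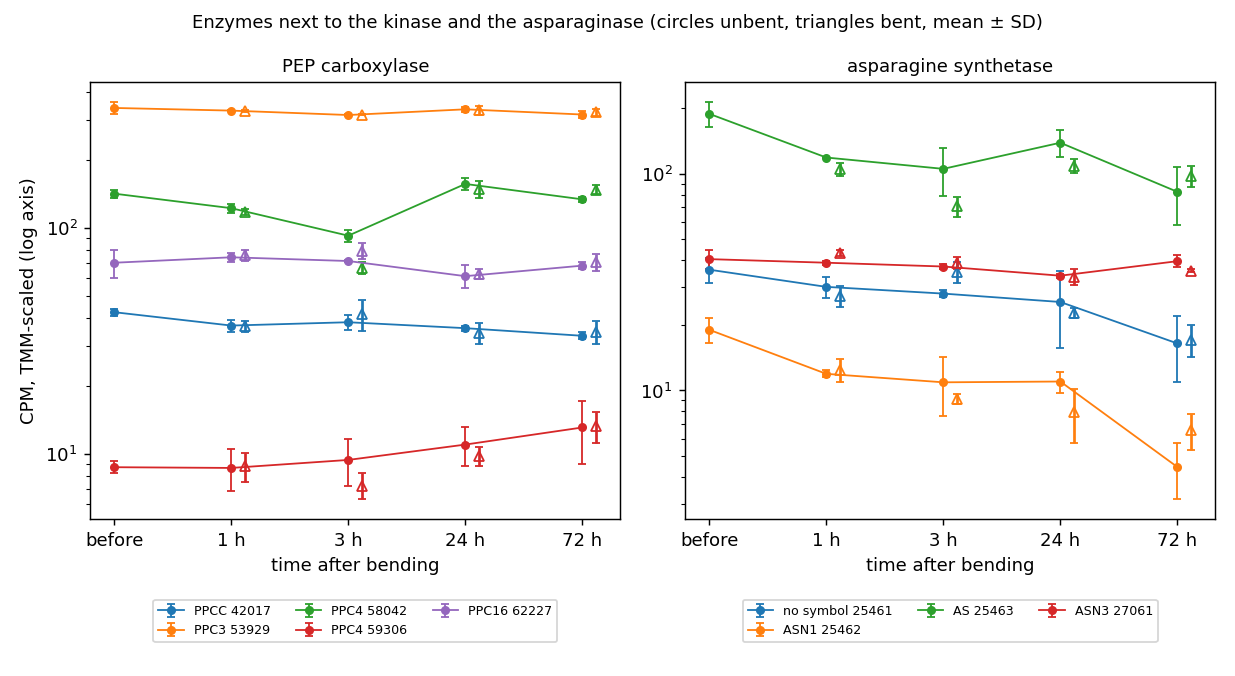
Level (CPM, log axis, mean and SD of 3 libraries) of 5 PEP carboxylase clusters (left) and 4 asparagine synthetase clusters (right) before bending and at 1, 3, 24 and 72 h; filled circles joined by lines are unbent stems and open triangles bent stems. PPC3 stayed between 317 and 341 CPM, and PPC4 (Cluster-9242.58042) was lowest in bent stems at 3 h, at 66.8 CPM.

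The wider list of PEP and malate metabolism held 72 tested clusters. With bending, 1 rose and 0 fell at 1 h, and 2 rose and 2 fell at 3 h. These are 1.39% of the list at 1 h and 5.56% at 3 h, beside 1.93% and 5.08% of all clusters. At 24 h and 72 h, 0 passed, beside 0.0246% and 0% of all clusters. The median log2 fold change of the list was 0.05 at 1 h and 0.03 at 3 h, beside 0.00 and 0.01 over all clusters. The cluster that rose at 1 h was a cytosolic pyruvate kinase, Cluster-9242.54074 (0.25 ± 0.07, adjusted p = 0.0400). At 3 h, a mitochondrial NAD-dependent malic enzyme, which turns malate into pyruvate, rose by 0.32 ± 0.08 (Cluster-9242.53761, adjusted p = 0.00542). An NADP-dependent malic enzyme rose by 0.42 ± 0.12 (Cluster-9242.56474, adjusted p = 0.0363), and ACA1, a carbonic anhydrase, fell by 0.55 ± 0.14 (adjusted p = 0.00868). From before to 3 h in unbent stems, 15 clusters of the list rose and 9 fell, 33.3% of the list beside 14.1% of all clusters.

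Asparagine synthetase, which makes the substrate of the asparaginase, had 4 clusters tested, and 0 passed for bending at any hour. Over all clusters, 1.93% passed at 1 h, 5.08% at 3 h, 0.0246% at 24 h and 0% at 72 h. At these shares, 0 calls among so few clusters says little, here and for the other enzymes of this paragraph. The most abundant, AS (Cluster-9242.25463), fell in unbent stems from 189 ± 24.8 CPM before to 105 ± 26.1 CPM at 3 h (log2 fold change -0.84 ± 0.19, adjusted p = 0.00417). ASN1 fell over the same hours by 0.80 ± 0.19 (adjusted p = 0.00205). At 24 h, the bending difference of AS was -0.35 ± 0.19 (adjusted p = 0.841). Of 2 other clusters named isoaspartyl peptidase/L-asparaginase, 0 passed for bending at any hour, and 1, Cluster-9242.27697, rose in unbent stems from before to 3 h by 0.40 ± 0.10 (adjusted p = 0.00496). On the length-scaled FPKM, group means of these 2 clusters ran from 2.59 to 9.71, below the 21.3 FPKM at which At3g16150 was lowest. Of 3 clusters of At4g00590, a putative threonine aspartase, 0 passed for bending at any hour.

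Of 39 asparagine and nitrogen clusters tested, bending raised 1 and lowered 0 at 1 h, and raised 3 and lowered 2 at 3 h. The shares were 2.56% at 1 h and 12.8% at 3 h, beside 1.93% and 5.08% of all clusters, and the list medians were 0.05 and 0.01. At 24 h and 72 h, 0 passed, beside 0.0246% and 0% of all clusters. GDH2, a glutamate dehydrogenase, rose at 1 h by 0.28 ± 0.07 (adjusted p = 0.0153) and at 3 h by 0.41 ± 0.07. ASP1, the mitochondrial aspartate aminotransferase, rose at 3 h by 0.40 ± 0.09 (adjusted p = 0.00474). AMT1-2, an ammonium transporter, fell at 3 h by 0.89 ± 0.22 (adjusted p = 0.00697), and NIR1, nitrite reductase, fell by 0.36 ± 0.10 (adjusted p = 0.0271). In unbent stems from before to 3 h, 3 clusters rose and 7 fell, 25.6% of the list beside 14.1% of all clusters, with ASP1 at 0.96 ± 0.10 and GLU1, a ferredoxin-dependent glutamate synthase, at -0.70 ± 0.06.

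PEP carboxylase kinase and its target are known to respond to phosphate starvation in Arabidopsis, so genes of that response were read as a list of 69 tested clusters. With bending, 3 rose and 1 fell at 1 h, and 5 rose and 4 fell at 3 h. The shares were 5.80% at 1 h and 13.0% at 3 h, beside 1.93% and 5.08% of all clusters, with list medians of 0.04 and -0.03. At 24 h and 72 h, 0 passed, beside 0.0246% and 0% of all clusters. Clusters of the list moved in both directions at 3 h, where 2 clusters of GDPD1, a glycerophosphodiester phosphodiesterase, rose by 1.27 ± 0.13 (adjusted p = 4.80e-08) and 1.25 ± 0.14. PHT1-7, a phosphate transporter, fell by 1.64 ± 0.32 (adjusted p = 0.00353), and PAP18, a purple acid phosphatase, by 0.44 ± 0.10 (adjusted p = 0.00556). MGD2, a galactolipid synthase, rose at 1 h by 0.58 ± 0.11 (adjusted p = 0.000892). From before to 3 h in unbent stems, 7 rose and 7 fell, 20.3% of the list beside 14.1% of all clusters, with PHO1, a phosphate exporter of the root vasculature in Arabidopsis, at -1.34 ± 0.12.

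The list of low energy and dark response genes had 58 tested clusters, and those that passed for bending were all higher. At 1 h, 6 rose and 0 fell, 10.3% of the list beside 1.93% of all clusters, while the median log2 fold change of the list was -0.03. At 3 h, 15 rose and 0 fell, 25.9% of the list beside 5.08% of all clusters, with a median of 0.17. Like the other lists, this one was chosen with earlier results of these data known. The share over all clusters was also not matched for level, so the shares are a description. MCCA, a subunit of the carboxylase that breaks down leucine, went from 71.9 ± 11.9 CPM in unbent to 156 ± 11.1 CPM in bent stems at 3 h (1.12 ± 0.09, adjusted p = 2.38e-12). BZIP53, a transcription factor of the low-energy response in Arabidopsis, rose by 1.13 ± 0.10 (adjusted p = 1.21e-10). TPS7 (Cluster-9242.65617), of the trehalose phosphate synthase family, rose by 0.77 ± 0.07, and RFS6, also known as the dark-inducible gene DIN10, by 0.81 ± 0.09. The bending effect at 3 h exceeded that at 1 h in 8 clusters and fell short of it in 0, 13.8% of the list beside 0.841% of all clusters. STR15, also known as SEN1, had the widest gap among those named here, 2.67 ± 0.44 (adjusted p = 0.000484). At 24 h and 72 h, 0 clusters of this list passed, beside 0.0246% and 0% of all clusters, with medians of -0.10 and -0.02.

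**Figure D5:**
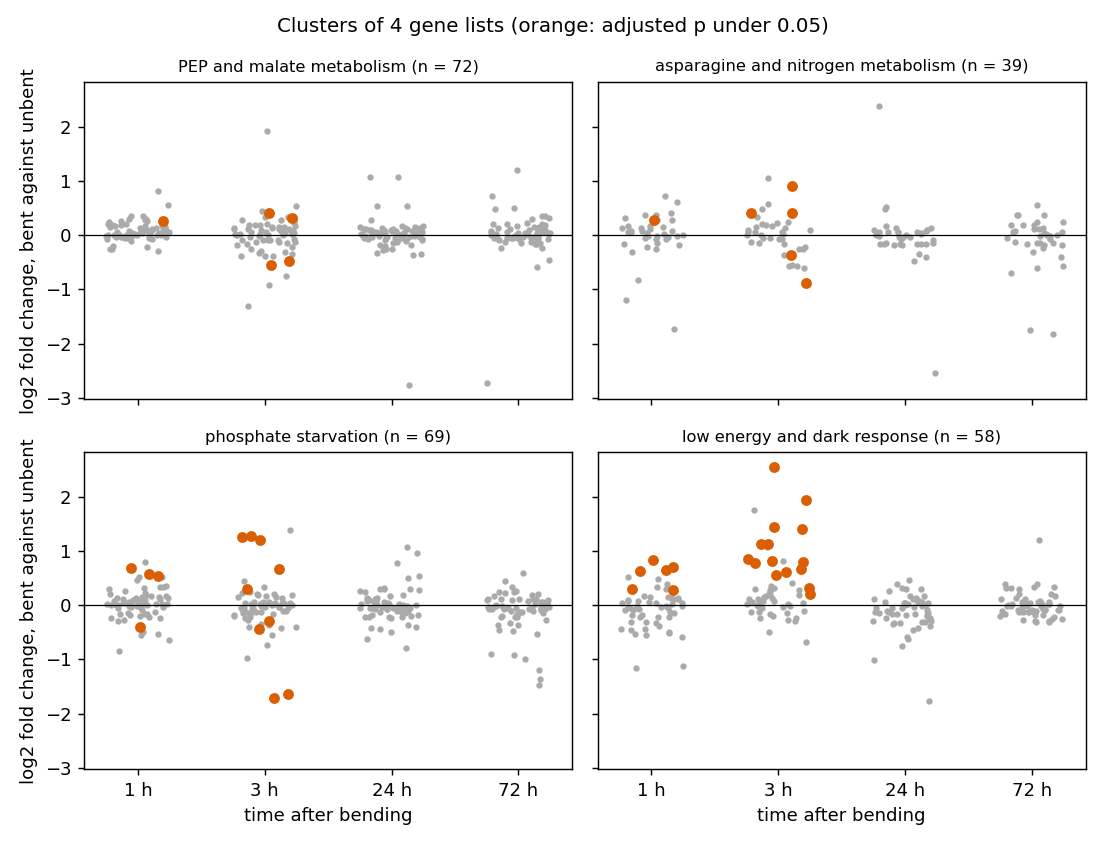
Log2 fold change of bent against unbent stems for every tested cluster of 4 gene lists at 1, 3, 24 and 72 h; orange points passed an adjusted p of 0.05 and grey points did not. Passing clusters lie at 1 h and 3 h only, with 15 of 58 low energy and dark response clusters higher and 0 lower at 3 h. The lists were chosen with earlier results of these data known. Over all clusters, 0.0246% passed at 24 h and 0% at 72 h, so the lack of late calls is no trait of these lists.

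Side by side at 24 h, the log2 fold changes of the 5 PEP carboxylase clusters ran from -0.17, in a PPC4 cluster, to 0.03. Those of the 4 asparagine synthetase clusters ran from -0.48 to -0.01. Beside them stood -0.52 for the abundant PPCK1 cluster and -0.74 for At3g16150, whose names are taken to have been chosen for a late effect.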

How the data were processed

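Poly(A)-enriched RNA of whole stems was sequenced as paired reads of 150 bases in 27 libraries, per the labels' protocols. The deposited table holds expected counts per assembled cluster; RSEM 1.2.28 is the tool named, per the submitters' processing notes. Neither an assembler nor a strand setting is given in the sources used here. The authors also deposited FPKM (length-scaled) values and database matches for the same clusters, per the file headers. Of the expected counts, 8.05% were not whole and all were rounded. Fragments and near-identical copies of a gene may share reads, so levels of clusters with the same name are uncertain. No sequences were available here to print.

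Expected counts were tested in R 4.3.3 with edgeR 4.0.16: filterByExpr on the 9 groups, TMM scaling, and a robust quasi-likelihood fit with 1 coefficient per group to all libraries. P-values were adjusted by Benjamini-Hochberg over 52918 clusters, with a threshold of 0.05. Library totals were 14.4 M to 23.1 M, and the common biological coefficient of variation was 0.158. No 2 libraries of a group were duplicates (chi-square per degree of freedom 4.68 to 20.7). The fit was tested on simulated data. Alternatives used DESeq2 1.42.0, limma 3.58.1 (voom, and log2(FPKM + 0.1) or log2(FPKM + 1)), other filters and size factors, only the groups compared, a replicate block and each library left out; leaving out libraries rich in ribosomal RNA or thrips reads was chosen after seeing the data. Figures were drawn in Python 3.11.15 with matplotlib 3.10.9.

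The members and lists were chosen with earlier results of these data known, and list patterns were corrected after the first list results were seen, where a symbol matched an unrelated protein. Named were all members, up to 4 clusters a list and comparison with the smallest p under the threshold, and the 5 clusters most like the most abundant cluster of each gene name. Beyond that rule, the enzymes next to the members and the clusters most like the low PPCK1 cluster were added after their values were seen. No root hair marker matched a cluster.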

Additional observations from a re-analysis of the deposited data

Results flagged for a closer look

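The bending effect on the abundant PPCK1 cluster (Cluster-9242.53906) differed between 1 h and 3 h. The difference of the log2 fold changes was 0.88 ± 0.12 in edgeR's interaction test (adjusted p = 2.11e-05), with a 95% interval from 0.64 to 1.13. All 3 bent libraries were below all 3 unbent ones at 1 h and above them at 3 h. Over the 21 alternatives for this value it ran from 0.81 to 0.98, with adjusted p-values from 3.03e-10 to 0.00102.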

How the results depend on the processing

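No value turned its direction while past a threshold. For the 9 counts of clusters past the threshold, the 3 against before or between unbent hours stayed within 1.5 times the main count. The count for the bending effect at 3 h minus 1 h (445) was 714 by DESeq2, 761 with no filter, 262 without libraries over 5% ribosomal RNA, and 221 to 620 with each library left out. At 1 h (1021) and 3 h (2689) the counts were 370 to 1083 and 1251 to 2839 with each library left out. At 24 h (13) the count was 60 by DESeq2, 132 with no filter, 82 with only the groups compared, 8 with a stricter filter, and 0 to 45 with each library left out. At 72 h (0) it was 9, 47 and 14 in the first 3 of these, 1 without libraries over 0.05% thrips, and 0 to 6 with each library left out. For the late mean (3) it was 47 by DESeq2, 11 by limma-voom, 121 with no filter, 9 with only the groups compared, 6 without the thrips libraries, 0 without the ribosomal RNA libraries, and 0 to 34 with each library left out.

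The abundant PPCK1 cluster at 1 h lost its call by limma-voom (-0.42) and ran from -0.48 to -0.35 with each library left out. The low PPCK1 cluster at 3 h lost its call on log2(FPKM + 0.1) (-0.68), on log2(FPKM + 1) (-0.52) and by limma-voom (-0.70), and ran from -0.82 to -0.54 with each library left out. Its rise from 1 h to 3 h in unbent stems lost its call by limma-voom (0.63) and with only the groups compared (0.58), and ran from 0.35 to 0.83. At3g16150 in unbent stems at 1 h against before passed by DESeq2 (0.31), with DESeq2 size factors (0.31), with no filter (0.32), with only the groups compared (0.29) and without the thrips libraries (0.38), and ran from 0.22 to 0.38. Its 72 h value ran from -0.38 to -0.13. The causes were not tested.

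Replicate numbers gave no steady pairing of the samples. Same-numbered libraries had correlations from -0.20 to 0.37 over 21 pairs, 8 of them above 0.1, with 10 of the pairs best for their own number. At 3 h, each bent library was most like the unbent library of its own number (r of 0.28, 0.07 and 0.28). A replicate block gave 21 clusters at 24 h and 11 for the late mean, moved no other count by more than 1.5 times and changed no call of the 3 clusters. Depth limits the low PPCK1 cluster most, with 49 to 174 counts a library at 1 h and 3 h.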
